A study of Danio rerio with 18 samples.

Results

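The integrated stress response and the unfolded protein response were followed through 8 transcripts, *chac1*, *trib3*, *ddit3*, *asns*, *psat1*, *sesn2*, *xbp1* and *hspa5*, which were picked by symbol out of the 31388 genes with deposited counts. Each symbol belonged to 1 gene, and all 8 genes had enough reads to be among the 23367 that were tested. RNA came from whole zebrafish larvae at 5 days post fertilization (DPF), in 18 libraries of 15 pooled larvae each, with 3 libraries in each of 6 groups. Homozygous *myd88* mutants (allele hu3568) were either conventionalized (CONVD) by adding the microbes of conventionally reared larvae at 3 DPF or kept germ-free (GF). Wildtype (WT) larvae of the ABTL line were CONVD, mono-associated from 3 DPF with *Exiguobacterium* ZWU0009 or with *Chryseobacterium* ZOR0023, or GF. The mutants had been outcrossed to ABTL but were not siblings of the WT larvae, so that the *myd88* genotype and the parental background cannot be told apart. Myd88 is the adaptor that passes signals from most toll-like receptors and from the interleukin-1 receptor.

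Both responses adjust protein synthesis and folding to the state of the cell. In the integrated stress response, kinases that sense unfolded protein, amino acid shortage, haem shortage or double-stranded RNA phosphorylate eIF2α, which slows translation in general and favours translation of the transcription factor ATF4. ATF4 and its partner CHOP (gene *ddit3*) then raise genes of amino acid supply and, under lasting stress, genes that stop the response or promote cell death. In the unfolded protein response of the endoplasmic reticulum (ER), Ire1 splices the mRNA of *xbp1* and Atf6 is cleaved, and the resulting factors raise chaperones such as *hspa5*, which encodes BiP. Read counts per gene do not show phosphorylation, cleavage or splicing, so that the spliced form of *xbp1* was not measured here.

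Total counts ranged from 6404744 to 23600976 per library. WT GF libraries had 7946202 to 10999402, fully below the 11787698 to 23600976 of WT CONVD and the 13542231 to 16277918 of mutant GF libraries. *Chryseobacterium* libraries 1 and 3 had the lowest totals and the lowest mean correlations with the other libraries of their group, and they lay farthest from the other WT libraries on principal components 2 and 3. The first component, with 55.6% of the variance, parted mutant from WT libraries. The targeted gene *myd88* had 3.9, 3.9 and 4.6 CPM (read counts scaled to the library size) in mutant CONVD larvae and 3.1, 3.1 and 3.8 CPM in mutant GF larvae, against 4.4, 5.8 and 4.3 CPM in WT CONVD larvae and 9.9, 12.3 and 9.1 CPM in WT GF larvae. Its level thus parted mutants from WT among GF larvae, whereas among CONVD larvae the libraries overlapped, and counts do not show the mutation itself. The labels call the 3 libraries of a group biological replicates without giving the cross or dish behind each, and the tests therefore see no more than the variation among these pools. In the RNA of whole larvae, fewer cells of a type and less RNA per cell cannot be told apart. No marker of 7 tissues was at 0 in all libraries, and markers of liver, gut, pancreas, muscle, neurons and leukocytes were all detected.

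The 8 transcripts fell into a few patterns over the groups. *chac1* and *trib3* were highest in WT GF larvae, *asns* was high in mutants of both conditions, *xbp1* was highest in mutant CONVD larvae, and *psat1* and *sesn2* had overlapping libraries in every pair of groups compared. Over all 18 libraries the counts of *sesn2* were only 29 to 117 reads, the fewest of the 8 genes. The other 7 genes had at least 112 reads in every library.

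**Figure D1:**
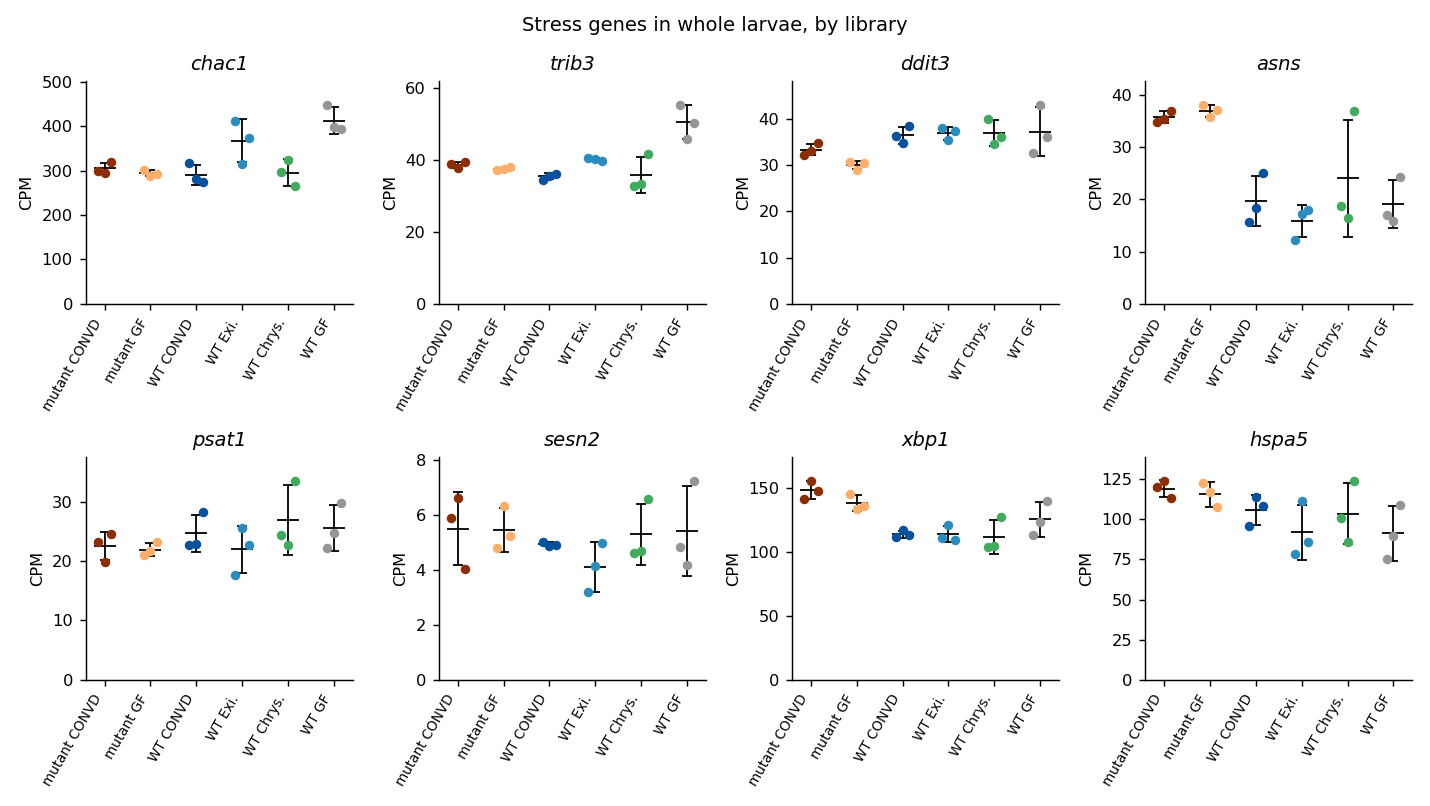
Level of each of the 8 transcripts (CPM on TMM library sizes) in every library. Points are libraries in the order of their replicate number, and bars show mean and SD (n = 3); *chac1* and *trib3* stand highest in WT GF larvae, and *asns* lies at 34.8 to 38.1 CPM in the 6 mutant libraries.

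In WT larvae, 2 transcripts that encode late effectors of the ATF4 branch were lower after conventionalization. *chac1* (ENSDARG00000070426) encodes an enzyme that degrades glutathione, and *trib3* (ENSDARG00000016200) a pseudokinase that restrains ATF4 and CHOP. A gene was called at a Benjamini-Hochberg adjusted p below 0.05 in edgeR's quasi-likelihood test and a fold change of at least 1.3, which 1.63% of all tested genes met in this comparison and 1.04% met with a fall. Of the 8 genes 2 were called, both lower. Libraries lay fully below those of GF larvae for the same 2 genes, as they did for 7.81% of all genes.

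*chac1* stood at 316.2, 280.4 and 275.4 CPM in CONVD larvae, against 448.1, 397.2 and 393.2 CPM in GF larvae. The highest CONVD library was thus well below the lowest GF library. The log2 change was -0.51 (standard error 0.09, adjusted p = 0.00135), a level 0.703 times that of GF larvae. *trib3* had 34.4, 35.5 and 36.1 CPM in CONVD larvae, against 55.2, 45.8 and 50.1 CPM in GF larvae. Again no library overlapped. Its log2 change came to -0.51 (standard error 0.07, adjusted p = 2.7e-05). Both genes were called under each of the 15 alternative analyses, with log2 fold changes between -0.57 and -0.44 for *chac1* and between -0.57 and -0.43 for *trib3*. With 3 libraries against 3, the smallest p of a 2-sided exact permutation test on a single gene is 0.1, so the calls rest on the model fitted across genes.

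*ddit3* (ENSDARG00000059836), the gene of CHOP itself, did not share this pattern. It had 36.2, 34.7 and 38.3 CPM in CONVD larvae, against 32.6, 42.9 and 35.9 CPM in GF larvae. The CONVD libraries lay inside the range of the GF libraries, and the log2 fold change of -0.02 had a 95% interval from -0.20 to 0.15.

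The remaining members were not called on conventionalization. *asns* (ENSDARG00000016375) encodes asparagine synthetase, a classic target of ATF4, and had 15.6, 18.3 and 25.0 CPM in CONVD larvae, against 17.01, 15.9 and 24.3 CPM in GF larvae. Its interval was wide, from -0.54 to 0.65 around a log2 fold change of 0.05. *psat1* (ENSDARG00000016733), which encodes an enzyme of serine synthesis, changed by -0.05 on the log2 scale with an interval from -0.37 to 0.27. *sesn2* (ENSDARG00000070012) encodes a sestrin that curbs mTORC1 when leucine is short, and its log2 difference of -0.15 had an interval from -0.58 to 0.29. A fall as large as that of *chac1* lies inside the intervals of *asns* and *sesn2* and outside that of *psat1*.

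The ER branch showed no call either. *xbp1* (ENSDARG00000035622) had 111.9, 116.9 and 112.9 CPM in CONVD larvae, against 113.0, 123.5 and 140.0 CPM in GF larvae. The log2 fold change was -0.14 (adjusted p = 0.52), and the libraries overlapped. *hspa5* (ENSDARG00000103846) had 95.8, 114.0 and 108.1 CPM in CONVD larvae, against 75.2, 89.4 and 109.2 CPM in GF larvae. Its log2 difference was 0.22 with an interval from -0.12 to 0.57. Over the 8 genes the median log2 fold change was -0.09, beside -0.004 over all tested genes.

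The same 2 transcripts were lower in larvae that carried *Chryseobacterium*, while with *Exiguobacterium* neither was called. These comparisons share the 3 GF libraries with the comparison of CONVD and GF larvae, and so they are not independent of it. With *Chryseobacterium*, 2 of the 8 genes were called, both lower, against 1.51% of all genes called and 1.08% called lower. With *Exiguobacterium*, 0 of the 8 were called by edgeR, against 0.757% of all genes, while 1 had an unadjusted p below 0.05 and DESeq2 called 0.

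*chac1* had 296.8, 324.4 and 264.8 CPM with *Chryseobacterium*, against 448.1, 397.2 and 393.2 CPM in GF larvae. No library overlapped, and *Chryseobacterium* libraries were fully below those of GF larvae for 7.10% of all genes. Its log2 change came to -0.48 (standard error 0.09, adjusted p = 0.00347). From library 2 alone, without the libraries that stand apart, it was -0.34 with an adjusted p of 0.30, and the call was lost. *trib3* had 32.8, 33.1 and 41.5 CPM with *Chryseobacterium*, against 55.2, 45.8 and 50.1 CPM in GF larvae. The log2 change was -0.51 (standard error 0.08, adjusted p = 1.4e-04), and from library 2 alone it was -0.60 (adjusted p = 0.000467). The fall of *trib3* was thus called with and without the shallow libraries. Enterocyte markers summed to 1002 to 1345 CPM with *Chryseobacterium*, against 1224 to 1538 CPM in GF larvae, with 1 of 7 called lower, and macrophage markers to 25.1 to 29.5 CPM with *Chryseobacterium*, against 21.4 to 22.3 CPM in GF larvae, with 1 of 5 called higher. Their part in these results was not tested.

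With *Exiguobacterium*, *trib3* was very even, at 40.6, 40.1 and 39.7 CPM, all below the GF libraries. For 6.19% of all genes the *Exiguobacterium* libraries lay below those of GF larvae in this way. The log2 fold change of -0.33 (adjusted p = 0.021) was under the fold threshold, and without GF library 2 it was -0.39 (adjusted p = 0.011) and called. *chac1* had 412.1, 316.0 and 373.5 CPM with *Exiguobacterium*, against 448.1, 397.2 and 393.2 CPM in GF larvae. These libraries overlapped, and the log2 difference of -0.17 had an interval from -0.36 to 0.02. Macrophage markers summed to 31.96 to 35.8 CPM with *Exiguobacterium*, against 21.4 to 22.3 CPM in GF larvae. Of these markers only *mpeg1.2* was called, higher by a log2 difference of 2.29. The part of these markers in the results with *Exiguobacterium* was not tested.

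The colonized WT groups were also set directly against each other. For CONVD against *Exiguobacterium*, CONVD against *Chryseobacterium* and *Exiguobacterium* against *Chryseobacterium*, 0 of 8 genes were called by edgeR, where 0.257%, 0.116% and 0.770% of all genes were. DESeq2 on all libraries called 0 as well, and 2, 0 and 2 of the 8 genes had an unadjusted p below 0.05. *trib3* was lower in every CONVD than in every *Exiguobacterium* library, as were 6.68% of all genes, but was not called (log2 difference -0.18, adjusted p = 0.58). *chac1* came nearest to a call. CONVD larvae were lower than *Exiguobacterium* larvae by a log2 difference of -0.34 (adjusted p = 0.16), and without *Exiguobacterium* library 2, the lowest of its group, this was -0.43 (adjusted p = 0.0033). *Exiguobacterium* larvae were higher than *Chryseobacterium* larvae by 0.31 (adjusted p = 0.11), and this was called without *Exiguobacterium* library 2, at 0.40 (adjusted p = 0.0052), or without *Chryseobacterium* library 2, at 0.38 (adjusted p = 0.040). Whether *chac1* differs between the mono-associations therefore hung on single pools.

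Within the *Chryseobacterium* group, 1 library carried much of the spread of the biosynthetic genes. *asns* had 18.6, 16.5 and 36.8 CPM, and library 3 was the highest of the 12 WT libraries and the only one in the range of the mutants. *psat1* had 24.5, 22.7 and 33.6 CPM, again highest in library 3, and *hspa5* had 101.2, 86.1 and 123.8 CPM. Library 3 was the highest for *asns* in the other WT groups too, at 24.3 CPM in GF, 25.0 CPM in CONVD and 17.9 CPM with *Exiguobacterium*. For *psat1* it was the highest in GF (29.8 CPM) and CONVD larvae (28.3 CPM), whereas with *Exiguobacterium* library 2 was (25.5 CPM). *Chryseobacterium* library 3 is 1 of the 2 that stand apart by depth and on the principal components, and the part of this in its high values was not tested. The log2 difference of *asns* from GF was 0.28 (adjusted p = 0.81) with all libraries and -0.13 without library 3, so its direction rested on that pool.

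In *myd88* mutants *chac1* and *trib3* stood at nearly the same level with and without microbes. Of the 8 genes 0 were called by edgeR between mutant CONVD and mutant GF larvae, with 0 at an unadjusted p below 0.05 and 0 called by DESeq2. In this comparison 18 genes in all, or 0.0770%, were called. With edgeR on the mutant groups alone, 2 members had an unadjusted p below 0.05 and 0 were called. That fit also called more genes in all, as given in the last section. *chac1* had 300.0, 294.9 and 319.7 CPM in mutant CONVD larvae, against 301.9, 288.6 and 291.4 CPM in mutant GF larvae. Its log2 difference was 0.05 with an interval from -0.13 to 0.24. *trib3* had 38.7, 37.6 and 39.2 CPM in mutant CONVD larvae, against 37.2, 37.4 and 37.8 CPM in mutant GF larvae. Its log2 difference was 0.04 with an interval from -0.12 to 0.20. For both genes the interval leaves out the fall estimated in WT larvae.

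The difference between the genotypes was tested as an interaction, the response of mutants minus that of WT larvae, in which 0.813% of all genes were called and 0.646% were called higher. *chac1* and *trib3* were the 2 members called, both with a higher value. For *chac1* the log2 difference of responses was 0.56 (standard error 0.12, adjusted p = 0.028), and for *trib3* it was 0.55 (standard error 0.10, adjusted p = 0.0034). The call of *trib3* was present in all 20 alternatives. That of *chac1* was lost on leaving out WT GF library 1, WT CONVD library 2 or 3, any of the 3 mutant GF libraries, or mutant CONVD library 1 or 3, although the difference stayed between 0.49 and 0.62, and its adjusted p then lay between 0.060 and 0.103. It was also lost with all libraries thinned to the smallest total, at 0.50 (adjusted p = 0.082). *xbp1* moved in the same direction, by 0.24, but was not called (adjusted p = 0.55). Of 5 macrophage markers 1 was called higher in WT CONVD than in WT GF larvae. The markers summed to 22.4 to 26.9 CPM in mutant CONVD and 20.4 to 23.9 CPM in mutant GF larvae. In WT CONVD larvae they summed to 32.8 to 39.4 CPM and in WT GF larvae to 21.4 to 22.3 CPM. Between mutant GF and WT GF larvae *mfap4* was called lower, at -1.09, and *mpeg1.2* higher, at 0.94, which the sums do not show. The other macrophage markers were not called there. In the interaction *mpeg1.2* was called lower, at -1.41. The part of these markers in these results was not tested.

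**Figure D2:**
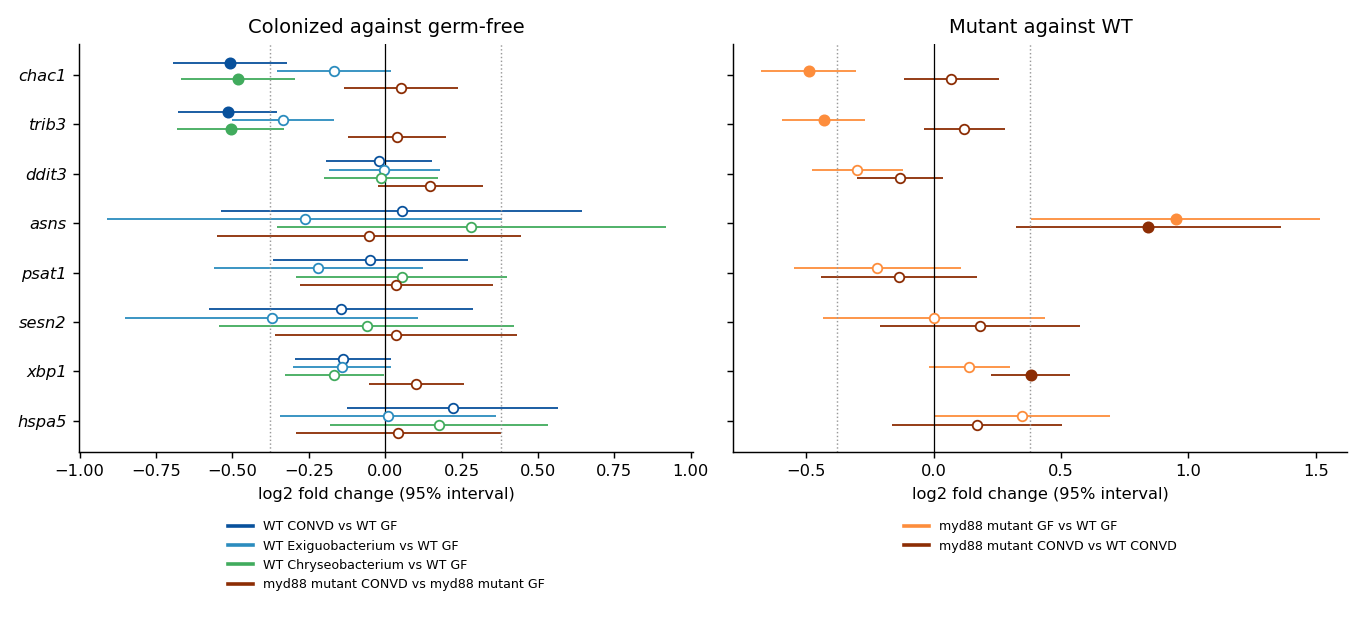
Log2 fold changes of the 8 transcripts with 95% intervals, for colonized against GF larvae (left) and *myd88* mutants against WT larvae (right). Filled points were called, open points were not, and dotted lines mark the fold threshold of 1.3; *chac1* and *trib3* are lower in WT CONVD than in WT GF larvae and near 0 in mutant CONVD against mutant GF larvae.

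*ddit3* was the 1 member whose mutant libraries did not overlap between conditions, as was so for 16.3% of all genes. It had 32.2, 32.9 and 34.6 CPM in mutant CONVD larvae, against 30.6, 28.9 and 30.4 CPM in mutant GF larvae. The log2 difference was 0.15 (adjusted p = 0.80). The test used an estimate of spread shared by all groups. Replicate pairs differed less in mutants than in WT larvae, with a chi-square per degree of freedom of 1.61 to 2.49 against 2.54 to 5.21. The shared spread may thus be wider than that of the mutants, and the absence of calls between their conditions is limited by this. The other 5 members differed by -0.05 to 0.10 on the log2 scale between mutant CONVD and mutant GF larvae.

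Among GF larvae, mutants had less *chac1* and *trib3* than WT larvae, and more *asns*. These 3 of 8 genes were called, where 31.3% of all genes were, 16.3% higher and 15.1% lower, so the share of members called was close to that of the transcriptome. *chac1* had 301.9, 288.6 and 291.4 CPM in mutant GF larvae, against 448.1, 397.2 and 393.2 CPM in WT GF larvae. The log2 difference was -0.49 (standard error 0.09, adjusted p = 1.3e-04). *trib3* had 37.2, 37.4 and 37.8 CPM in mutant GF larvae, against 55.2, 45.8 and 50.1 CPM in WT GF larvae. Its log2 difference was -0.43 (standard error 0.07, adjusted p = 2.4e-05), and without WT GF library 1 it was -0.36 and under the fold threshold. With all libraries thinned to the smallest total it was -0.35 (adjusted p = 0.012), again under that threshold. The interaction and the comparisons of colonized with GF WT larvae use the same 3 WT GF libraries, so they are not independent of this comparison.

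*ddit3* was also lower in mutant GF larvae without reaching the fold threshold. Its 30.6, 28.9 and 30.4 CPM in mutant GF larvae lay below the 32.6, 42.9 and 35.9 CPM in WT GF larvae, as the libraries of mutants lay below those of WT for 26.2% of all genes. The log2 difference was -0.30 (adjusted p = 0.0035), and without WT GF library 1 it was -0.39 and called. Without WT GF library 2, the highest, it was -0.20.

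Among CONVD larvae neither *chac1* nor *trib3* was called between the genotypes. *chac1* had 300.0, 294.9 and 319.7 CPM in mutant CONVD larvae, against 316.2, 280.4 and 275.4 CPM in WT CONVD larvae. The libraries overlapped and the log2 difference was 0.07, with an interval from -0.12 to 0.25. *trib3* had 38.7, 37.6 and 39.2 CPM in mutant CONVD larvae, against 34.4, 35.5 and 36.1 CPM in WT CONVD larvae. These libraries did not overlap, as was so for 56.1% of all genes, and the log2 difference of 0.12 was not called (adjusted p = 0.18).

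*asns* had the largest difference between genotypes among the 8 genes. It had 38.1, 35.8 and 37.1 CPM in mutant GF larvae, against 17.01, 15.9 and 24.3 CPM in WT GF larvae, and 34.8, 35.3 and 36.9 CPM in mutant CONVD larvae, against 15.6, 18.3 and 25.0 CPM in WT CONVD larvae. Every mutant library lay above the WT libraries of the same condition, as was so for 26.8% of all genes among GF and 28.4% among CONVD larvae. The log2 difference was 0.95 among GF larvae (standard error 0.26, adjusted p = 0.0097) and 0.84 among CONVD larvae (standard error 0.24, adjusted p = 0.012). Without WT CONVD library 2 the difference among CONVD larvae had an adjusted p of 0.052, and with all libraries thinned to the smallest total one of 0.104, so that its call was lost in both. *psat1*, the other biosynthetic member, had 21.0, 21.7 and 23.2 CPM in mutant GF larvae, against 22.3, 24.8 and 29.8 CPM in WT GF larvae. It was not called, with log2 differences of -0.22 among GF and -0.14 among CONVD larvae.

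Of the 2 ER genes, *xbp1* was called higher in mutants among CONVD larvae. It had 141.6, 155.9 and 147.7 CPM in mutant CONVD larvae, against 111.9, 116.9 and 112.9 CPM in WT CONVD larvae. Every mutant library was above every WT library, as was so for 28.4% of all genes among CONVD larvae. The log2 difference was 0.38 (standard error 0.07, adjusted p = 8.3e-05), just past the fold threshold of 0.38 on the log2 scale. Under 8 of 14 alternatives it was below that threshold, at an adjusted p of 0.0021 or less. These values ran from 0.314 after thinning to 0.377 with RLE size factors. Among CONVD larvae 2 of 8 members were thus called, *asns* and *xbp1*, where 29.7% of all genes were and 15.2% were called higher. Among GF larvae *xbp1* had 145.2, 134.0 and 135.7 CPM in mutants, against 113.0, 123.5 and 140.0 CPM in WT larvae, a log2 difference of 0.14 that was not called (adjusted p = 0.12).

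*hspa5* had 123.0, 116.9 and 107.6 CPM in mutant GF larvae, against 75.2, 89.4 and 109.2 CPM in WT GF larvae. The libraries overlapped through WT GF library 3, and the log2 difference was 0.35 (adjusted p = 0.095). Without that library it was 0.49 and called (adjusted p = 0.030). Among CONVD larvae it had 120.2, 124.3 and 113.6 CPM in mutants, against 95.8, 114.0 and 108.1 CPM in WT larvae, with a log2 difference of 0.17 that was not called. *sesn2* differed by 0.002 among GF and by 0.18 among CONVD larvae, with libraries that overlapped in both.

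Markers of secretory and digestive organs moved with the genotype. The summed CPM of the liver markers was 4981 to 5083 in mutant GF and 3745 to 4345 in mutant CONVD larvae, against 2274 to 3200 in WT GF and 2325 to 2884 in WT CONVD larvae. Of 13 liver markers tested, 10 were higher in mutants among GF larvae and 10 among CONVD larvae. Enterocyte markers summed to 2358 to 2567 CPM in mutant GF larvae, against 1224 to 1538 CPM in WT GF larvae, with 7 of 7 called higher, and to 1828 to 2035 CPM in mutant CONVD larvae, against 1297 to 1538 CPM in WT CONVD larvae, with 5 of 7 called higher. Exocrine pancreas markers summed to 1993 to 2622 CPM in mutant GF larvae, against 1031 to 1590 CPM in WT GF larvae, with 7 of 17 called higher. Among CONVD larvae the pancreas sums overlapped, at 1832 to 2138 CPM in mutants and 1162 to 2147 CPM in WT larvae, with 2 of 17 called higher and 1 lower. Neuron markers summed to 1457 to 1523 CPM in mutant GF larvae, against 1677 to 1893 CPM in WT GF larvae, and neutrophil markers to 36.9 to 46.6 CPM, against 56.2 to 65.3 CPM. Of the neuron markers only *elavl3* was called lower. Of the neutrophil markers *lyz*, *mpx* and *npsn* were called lower, and *mmp9* and *mmp13a* were not called. The part of these tissues in the differences of *asns*, *xbp1*, *hspa5*, *chac1* and *trib3* between genotypes was not tested.

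The levels of each gene were put in order over the 6 groups. *trib3* averaged 40.1 ± 0.446 CPM with *Exiguobacterium*, 38.5 ± 0.850 CPM in mutant CONVD, 37.5 ± 0.304 CPM in mutant GF, 35.8 ± 4.94 CPM with *Chryseobacterium* and 35.3 ± 0.841 CPM in WT CONVD larvae, against 50.4 ± 4.69 CPM in WT GF larvae (SD, n = 3 each). Its WT GF libraries overlapped with no *Exiguobacterium* library, and those with no mutant CONVD library, while the lower groups overlapped with their neighbours. For *chac1* every neighbouring pair in the order overlapped, with means of 367.2 ± 48.4 CPM with *Exiguobacterium*, 304.9 ± 13.1 CPM in mutant CONVD, 295.4 ± 29.8 CPM with *Chryseobacterium*, 294.0 ± 7.02 CPM in mutant GF and 290.7 ± 22.3 CPM in WT CONVD larvae, against 412.8 ± 30.6 CPM in WT GF larvae (SD, n = 3 each). For *asns*, *psat1*, *sesn2*, *xbp1* and *hspa5* neighbouring groups in the order overlapped throughout. *ddit3* was separate only at its lower end, between WT CONVD, mutant CONVD and mutant GF larvae.

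Pools varied in a shared way for some members. Over the 12 WT libraries *asns* and *psat1* varied together, with Pearson's r = 0.93 (permutation p = 9e-05) and Spearman's rho = 0.73 (permutation p = 0.0099), and r = 0.88 without the 2 libraries farthest from the median of *asns*. Over the same libraries *chac1* and *hspa5* ran opposite, with r = -0.79 (permutation p = 0.0039) and rho = -0.80 (permutation p = 0.0033), and r = -0.61 without the 2 libraries farthest from the median of *chac1*. These were 2 of 28 pairs computed, picked after their values were seen, and the adjusted p of r over the pairs was 0.0025 for *asns* with *psat1* and 0.020 for *chac1* with *hspa5*, and that of rho was 0.077 and 0.046. The adjusted p of r was also 0.020 for *asns* with *sesn2* (r = 0.81) and *hspa5* (0.73), and for *psat1* with *sesn2* (0.80) and *hspa5* (0.78). Of these pairs, *psat1* with *hspa5* had an adjusted p of rho of 0.032, and the others 0.078 to 0.43. The permutations exchanged the 12 WT libraries freely across groups and replicate numbers. *asns* was highest in library 3 of each WT group, so the p-values do not allow for a pattern shared by group or number. As deviations from the group means over all 18 libraries, the correlations were 0.87 for *asns* with *psat1* and -0.89 for *chac1* with *hspa5*. Such deviations still hold whatever same-numbered libraries share. *chac1* and *trib3* had r = 0.71 over the 12 WT libraries (adjusted p of r 0.038, of rho 0.22). They did not vary together within groups, at -0.20, although both differed between the same groups. Mutant libraries lay off the line of *asns* and *psat1*, with high *asns* at ordinary *psat1*.

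**Figure D3:**
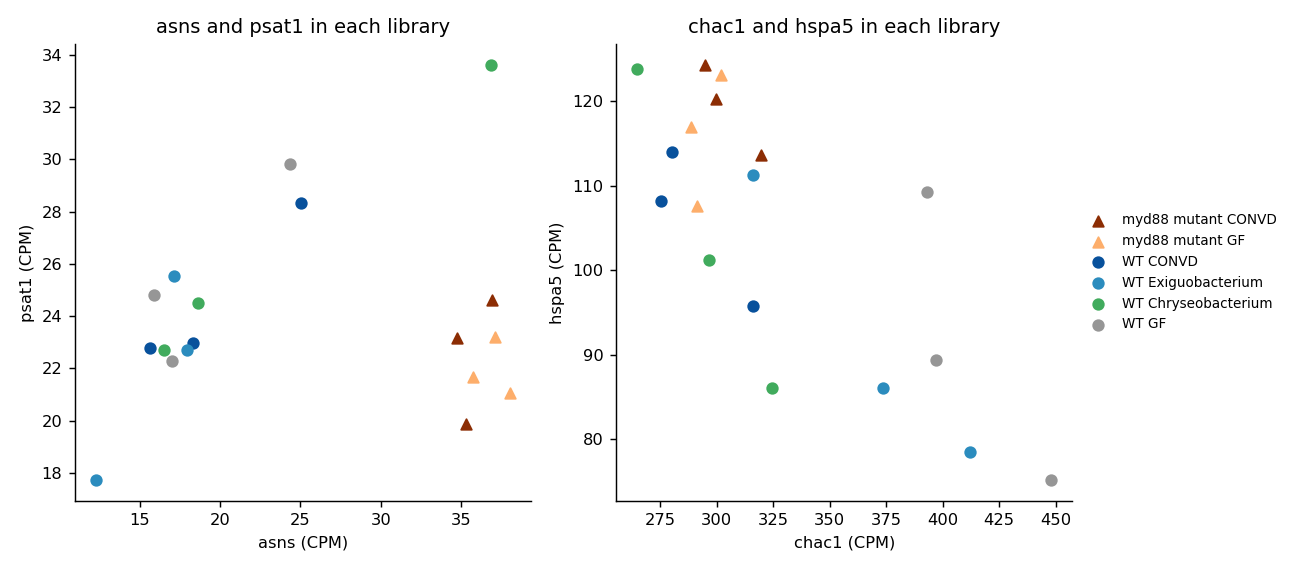
CPM of *asns* against *psat1* and of *chac1* against *hspa5*, with 1 point per library, triangles for *myd88* mutants and circles for WT larvae. WT libraries form a rising line for *asns* and *psat1* (r = 0.93) and a falling one for *chac1* and *hspa5* (r = -0.79), and mutants have 34.8 to 38.1 CPM of *asns* at 19.9 to 24.6 CPM of *psat1*.

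Outside the members, the genes whose log2 CPM ran most like theirs over the 18 libraries were listed by Pearson's r. Mutants and WT larvae form separate clusters, and such an r is given as a description with no test. For *chac1* these were *tob1b*, *fosaa* and *sik1* (r = 0.94 for each), which encode an antiproliferative protein, a Fos family transcription factor and a salt-inducible kinase. For *trib3* they included *sdc4* (0.94) and *ankrd22* (0.93). For *asns* they were *abcf1* and the amino acid transporter gene *slc1a5* (0.96 each). For *hspa5* they were the heat shock gene *hspa4b* (0.91), the histidyl-tRNA ligase gene *hars* (0.91) and the mitochondrial protease gene *lonp1* (0.90), and for *xbp1* they were *C9H2orf47* (0.94) and *polr2h* (0.93). For *ddit3* the nearest gene was *sstr1a* (0.89), for *psat1* *endog* (0.80) and for *sesn2* *tmem176* (0.84).

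The rest of the pathway was read from lists of genes by role. The sensors and regulators of eIF2α were nearly level on conventionalization of WT larvae. Of these genes edgeR called 0 of 12, where 1.63% of all genes were called, and DESeq2 called 0. At an unadjusted p below 0.05 there was 1 gene. That gene was *ppp1r15a*, singled out after its values were seen, which encodes the stress-induced subunit of the eIF2α phosphatase. It averaged 43.5 ± 2.17 CPM in CONVD and 56.1 ± 2.16 CPM in GF larvae (SD, n = 3 each), a log2 difference of -0.37 (adjusted p = 6.6e-04), just under the fold threshold. In the interaction it was called, at 0.41 (adjusted p = 0.021). The kinase gene *eif2ak3* (PERK) differed by -0.01 and *ern1* (Ire1) by -0.02 on the log2 scale, and these too were picked after their values were seen.

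Of 16 genes of ATF4 and its transcription targets, 2 were called lower in WT CONVD larvae, and 0 higher, where 1.04% of all genes were called lower and 0.586% higher. *atf3*, a stress-induced transcription factor, averaged 14.4 ± 0.556 CPM in CONVD and 31.3 ± 4.86 CPM in GF larvae (SD, n = 3 each), a log2 fold change of -1.11 (adjusted p = 4.2e-08). *ddit4*, an inhibitor of mTORC1, averaged 16.3 ± 0.741 CPM in CONVD and 28.2 ± 3.89 CPM in GF larvae (SD, n = 3 each), at -0.79 (adjusted p = 2.1e-06). Both are also induced by signals other than ATF4. The transcripts of ATF4 itself, *atf4a* and *atf4b*, differed by 0.004 and -0.12, were not called, and are named for their role. The list median was -0.08, beside -0.004 over all genes. With *Exiguobacterium*, *atf3* (-0.68) and *nupr1b* (-0.44) were called lower, and with *Chryseobacterium*, *atf3* (-0.93) and *ddit4* (-0.80). The call of *nupr1b* was lost under 7 of 15 alternatives, among them leaving out either GF library 1 or 3 (adjusted p = 0.071 and 0.20) or *Exiguobacterium* library 1 or 2 (adjusted p = 0.19 and 0.11).

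Of 24 genes of amino acid synthesis and transport, the 2 called lower in WT CONVD larvae were transporters. Among all genes 1.04% were called lower in this comparison. *slc7a3a*, which encodes a carrier of cationic amino acids, averaged 102.5 ± 2.48 CPM in CONVD and 147.6 ± 11.7 CPM in GF larvae (SD, n = 3 each), at -0.53 (adjusted p = 4.2e-07). *slc3a2b*, which encodes a heavy chain shared by several amino acid exchangers, was lower at -0.63 (adjusted p = 1.2e-04). Both were also called lower with *Exiguobacterium*, at -0.50 and -0.51, and with *Chryseobacterium*, at -0.56 and -0.74. The call of *slc3a2b* with *Exiguobacterium* was lost with edgeR on the compared groups alone (adjusted p = 0.15). With *Exiguobacterium* *cbsa*, which encodes cystathionine beta-synthase, was called higher at 0.38, a call lost under 11 of 15 alternatives. The list median was -0.03 in CONVD against GF larvae.

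The ER lists and the tRNA ligases showed no call on colonization of WT larvae. For CONVD against GF, edgeR called 0 of 13 tRNA ligases, 0 of 25 ER chaperone and folding entries and 0 of 21 genes of ER-associated degradation and the translocon. At an unadjusted p below 0.05 there were 0, 0 and 2, and DESeq2 called 0 in each list. Their median log2 differences were 0.04, 0.04 and -0.01. With *Exiguobacterium* and with *Chryseobacterium*, these 3 lists again had 0 calls by either tool, with at most 2 genes of a list at an unadjusted p below 0.05. Of all genes, edgeR called 1.63% for CONVD against GF, 0.757% with *Exiguobacterium* and 1.51% with *Chryseobacterium*. With shares this low, 0 calls in lists of this size do not set these genes apart from the others. Between mutant CONVD and mutant GF larvae, edgeR and DESeq2 called 0 genes in any of the lists, with 0 to 2 genes per list at an unadjusted p below 0.05. Among all genes edgeR called 0.0770% there.

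Between genotypes many more genes of these lists were called, as among all genes. Of the 24 genes of amino acid supply, 9 were higher and 4 lower in mutant GF than in WT GF larvae, and 10 were higher and 3 lower among CONVD larvae. Of all genes, 16.3% were called higher and 15.1% lower among GF larvae, and 15.2% higher and 14.5% lower among CONVD larvae. The genes of cystathionine beta-synthase, *cbsa* and *cbsb*, had the lowest p-values among them. *cbsa* averaged 65.8 ± 6.06 CPM in mutant GF and 19.99 ± 0.914 CPM in WT GF larvae (SD, n = 3 each), at 1.72 (adjusted p = 1.2e-16). *cbsb* was higher by 0.87 among GF larvae, and *shmt2*, which encodes mitochondrial serine hydroxymethyltransferase, averaged 33.6 ± 1.06 CPM in mutant GF and 14.7 ± 1.92 CPM in WT GF larvae (SD, n = 3 each) and was called higher. *pycr1a*, which encodes an enzyme of proline synthesis, was lower, at 2.47 ± 0.390 CPM in mutant CONVD and 8.23 ± 0.988 CPM in WT CONVD larvae (SD, n = 3 each), a log2 difference of -1.73 (adjusted p = 1.6e-10).

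Of 13 tRNA ligases, 6 were called higher in mutant GF larvae and 0 lower, and all 13 had a positive difference, with a median of 0.33 beside -0.01 over all genes. *iars* was higher by 0.87 and *mars* by 0.50 among GF larvae, and by 0.63 and 0.40 among CONVD larvae, where 3 of the 13 were called. Among GF larvae the ligase gene *cars* lost its call without WT GF library 1 or 2 or mutant GF library 1 or 2. The ligase gene *tars* lost its call there without WT GF library 1. Among CONVD larvae *mars* fell under the fold threshold without WT CONVD library 1 or mutant CONVD library 1, and *cars* lost its call after thinning. Of the ER chaperone and folding entries 5 of 25 were called higher among GF larvae and 3 among CONVD larvae, with 0 lower in both, numbers near the 16.3% and 15.2% of all genes called higher. *dnajb11*, a cochaperone of BiP, was higher by 0.60 and 0.58. *ero1l*, an ER oxidase, was called higher in both comparisons, at 4.79 ± 1.15 CPM in mutant GF and 2.19 ± 0.630 CPM in WT GF larvae (SD, n = 3 each). The others were *uggt1*, *calr3b* and *p4hb* among GF larvae and *manf* among CONVD larvae, all folding factors of the ER. Of 21 genes of ER-associated degradation and the translocon, 4 were called higher in each comparison, *ssr1*, *herpud1*, *spcs3* and *ssr3*, again near the share of all genes. The call of *ssr3* was lost without WT GF library 1 among GF larvae (adjusted p = 0.074), and without WT CONVD library 1 or mutant CONVD library 3 among CONVD larvae (adjusted p = 0.058 and 0.063), and that of *manf* was lost under 4 of 14 alternatives. Among GF larvae *spcs3* lost its call without WT GF library 1, without mutant GF library 1, or after thinning (adjusted p = 0.0504). Among CONVD larvae *herpud1* fell under the fold threshold without WT CONVD library 2 or mutant CONVD library 1 or 2. *ssr1* fell under it there without WT CONVD library 1 or after thinning. The sensor gene *atf6* was the 1 called sensor, higher by 0.64 among GF and 0.73 among CONVD larvae. Liver and gut markers were higher in mutants in both comparisons and pancreas markers among GF larvae, as given above, and their part in these lists was not tested.

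Targets of ATF4 did not share 1 direction between genotypes. Among GF larvae *eif4ebp1* (0.46) and *sqstm1* (0.40) were higher in mutants, and *atf3* (-1.49), *ddit4* (-1.04), *map1lc3b* (-0.58) and *nupr1a* (-0.49) were lower. Among CONVD larvae *eif4ebp1* (0.43) and *nupr1b* (0.39) were higher in mutants, and *nupr1a* (-0.57), *map1lc3b* (-0.40), *atf3* (-0.40) and *ddit4* (-0.39) were lower. Here *nupr1b* fell under the fold threshold without WT CONVD library 2 (0.29) or mutant CONVD library 2 (0.35). *map1lc3b* did so without mutant CONVD library 1 (-0.375) or 2 (-0.33). The calls of *atf3* and *ddit4* among CONVD larvae, and of *sqstm1* and *nupr1a* among GF larvae, were not followed through the alternatives. In the interaction *atf3* (1.09) and *ddit4* (0.65) were called, as were the transporter *slc7a3a* (0.55) and *trib1* (1.18), all of which were lower in WT CONVD than in WT GF larvae. These 4 genes, and in the genotype comparisons *sqstm1*, *nupr1a* among GF larvae and *atf3* and *ddit4* among CONVD larvae, were named after their values were seen.

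**Figure D4:**
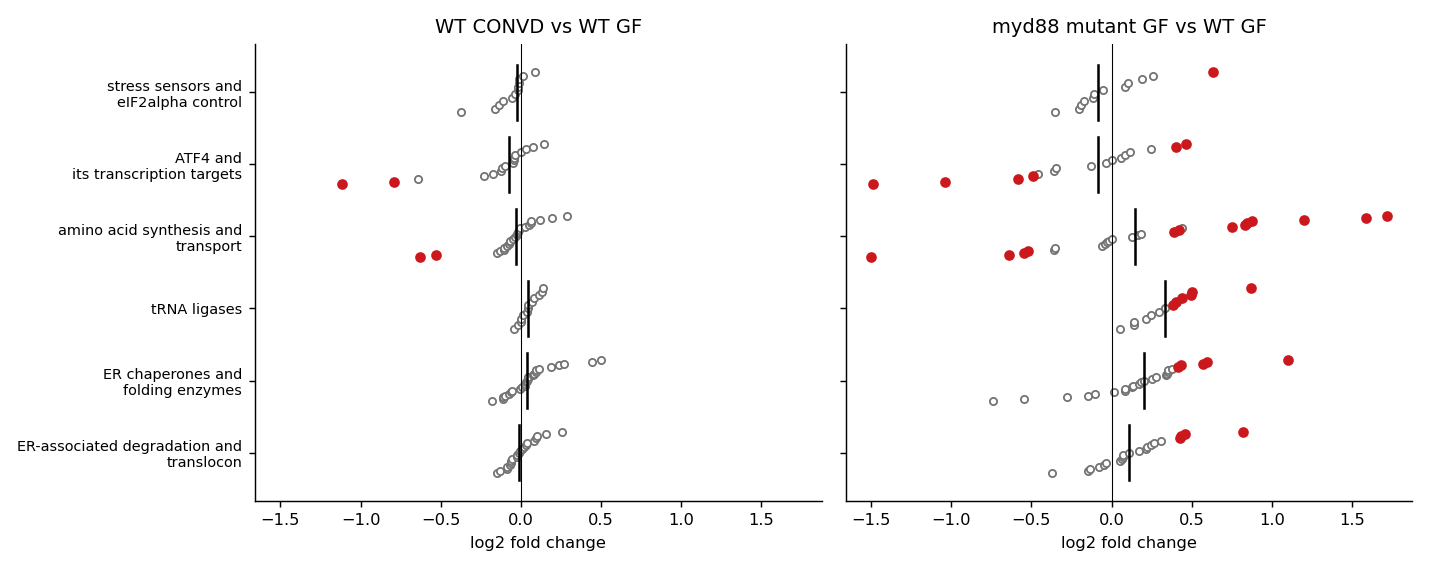
Log2 fold changes of the genes of 6 pathway lists, for WT CONVD against WT GF larvae (left) and mutant GF against WT GF larvae (right). Each point is a gene, filled where called, and the black line is the list median; calls are few and lower on the left, and all 6 called tRNA ligases are higher on the right.

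Close relatives of the members were compared as well, and reads of 50 nucleotides that fit more than 1 copy could have been split between them. *trib1*, a pseudokinase related to *trib3*, averaged 8.22 ± 0.531 CPM in WT CONVD and 15.7 ± 0.307 CPM in WT GF larvae (SD, n = 3 each), at -0.94 (adjusted p = 1.0e-05), and it was also lower with *Chryseobacterium*, at -0.85. In mutants *trib1* was lower among GF larvae, at -0.48, and higher among CONVD larvae, at 0.70. *trib2* (-0.51) and *sesn1* (-0.44) were lower in mutant GF than in WT GF larvae. The call of *sesn1* was lost under 5 of 14 alternatives, and without WT GF library 1 its log2 difference was -0.26 (adjusted p = 0.11). *hspa9*, which encodes the mitochondrial relative of BiP, averaged 255.6 ± 2.39 CPM in mutant GF and 155.3 ± 22.0 CPM in WT GF larvae (SD, n = 3 each), at 0.72 (adjusted p = 8.6e-04). *chac2*, the relative of *chac1*, was higher in mutant CONVD than in WT CONVD larvae, at 0.60, with libraries that overlapped.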

How the data were processed

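Whole larvae in pools of 15 gave 18 RNA libraries, which were read from 1 end for 50 nucleotides after a preparation that does not mark the strand, so that reads of overlapping genes on opposite strands cannot be told apart. The authors mapped the reads to GRCz10, and the submitters' processing notes list DESeq, SAMtools and Bowtie2 without a version. Deposited per library and gene is a read count. In 9 libraries the deposited column stands under the unit of estimated counts (expected counts) only because an unnamed last entry, between 0.747 and 1.48, is not whole. This entry was left out, and the gene counts, all whole, were used as read counts.

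The analysis used edgeR 4.0.16, DESeq2 1.42.0 and limma 3.58.1 under R 4.3.3, and correlations and plots were made in Python 3.11.15. Genes were kept by filterByExpr (minimum count 10, minimum total 15). All libraries entered a robust quasi-likelihood model with TMM normalization and 1 coefficient per group, which left 12 residual degrees of freedom, with Benjamini-Hochberg adjustment over all tested genes of each comparison, and calls needed an adjusted p below 0.05 and a fold of at least 1.3. CPM used TMM library sizes, and correlations with other genes used log2 CPM with a prior count of 2. Correlations between members used 100000 permutations of the WT libraries. The fits were tested on simulated data.

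The members and the lists were chosen with earlier results of these data known. Of the list genes, up to 4 called genes with the lowest p-values per list and comparison were named, together with up to 3 of the genes nearest to each member by Pearson's r at an average log2 CPM of 1 or more, and others only where the text says so or where a list had few calls. The lists matched 12 of 14 sensors, 16 of 18 ATF4 targets, 24 of 24 amino acid genes, 13 of 14 tRNA ligases, 24 of 24 ER chaperones in 25 entries, 21 of 21 degradation and translocon genes and 7 of 7 relatives. Alternatives were RLE size factors, DESeq2 on all libraries, edgeR or DESeq2 on the compared groups alone, no filter, no fold threshold, a replicate block, and each library left out. After seeing the data, *Chryseobacterium* library 2 only, thinning to 6404744 reads and the 12 WT libraries alone were added. Chi-square per degree of freedom was 1.61 to 5.21 over the 18 pairs of replicates, so that no library repeated another. Sequences and positions on the assembly were not used here.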

Additional observations from a re-analysis of the deposited data

Results flagged for a closer look

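The response of *chac1* to conventionalization differed between genotypes by 0.56 on the log2 scale, by a test of the difference itself, an interaction term in edgeR's quasi-likelihood model with an adjusted p of 0.028. The response of *trib3* differed by 0.55 on the log2 scale in the same test (adjusted p = 0.0034). The call of *trib3* was present in all alternatives. That of *chac1* was lost on leaving out any of several single libraries, at an adjusted p of 0.060 to 0.103 in the same test. It was also lost after thinning (adjusted p = 0.082). The mutants were not siblings of the WT larvae, so that genotype and parental background cannot be told apart.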

How the results depend on the processing

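Over 80 results for the 8 genes, 1240 values were recomputed, of which 1210 stayed on their side of the threshold, 22 lost a call, 8 gained one and 0 changed direction while called. Members called numbered 1 for *Exiguobacterium* against GF without a fold threshold (0 to 1 with libraries left out), and 1 for *Chryseobacterium* against GF from library 2 only. In the interaction they numbered 1 after thinning and 1 to 2 with libraries left out. For mutant CONVD against WT CONVD they numbered 1 under RLE, 1 under DESeq2 on all libraries, 1 under edgeR and 1 under DESeq2 on the compared groups alone, 0 after thinning and 1 to 2 with libraries left out, and for CONVD against *Exiguobacterium* and *Exiguobacterium* against *Chryseobacterium* 0 to 1 with libraries left out. Counts over all genes moved by over 1.5 times in these cases. Thinning gave 227 for WT CONVD against GF (380 as reported), 104 for *Exiguobacterium* against GF (177), 209 for *Chryseobacterium* against GF (352), 5 for mutant CONVD against mutant GF (18), 99 for the interaction (190), and 36, 14 and 92 for CONVD against *Exiguobacterium* (60), CONVD against *Chryseobacterium* (27) and *Exiguobacterium* against *Chryseobacterium* (180). The compared groups alone gave 200 (edgeR) and 220 (DESeq2) for *Chryseobacterium* against GF, 143 and 100 for mutant CONVD against mutant GF, and with edgeR 39, 7 and 72 for the 3 pairs of colonized groups in the order above. No fold threshold gave 28 for mutant CONVD against mutant GF and 10418 for mutant CONVD against WT CONVD (6942). The 12 WT libraries alone gave 27, 16 and 83 for the colonized pairs, library 2 only gave 12 and 35 for those with *Chryseobacterium*, and DESeq2 on all libraries gave 275 for *Exiguobacterium* against *Chryseobacterium*. With libraries left out, the counts were 2 to 13 for mutant CONVD against mutant GF, and 24 to 78, 18 to 54 and 59 to 307 for the colonized pairs. The causes were not tested. Same-numbered libraries correlated at over 0.1 in all 3 numbers in 0 comparisons. Between WT groups these correlations were all positive, at 0.0014 to 0.182, and whether same-numbered pools share a batch was not tested. With the number as a replicate block 2, 0, 2, 0, 2, 3 and 2 members were called in the 7 comparisons with GF or between genotypes, the same counts as reported. The size factors moved the median of all genes by less than 0.01. Of the 8 genes *sesn2* had the fewest reads.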
